A study of Drosophila melanogaster with 4 samples.

Results

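Chromosome arm 3R, the right arm of the third chromosome of Drosophila melanogaster, carried 513 of the 6065 peaks listed for the transcription factor Atonal in the eye imaginal disc. The members are all peaks whose sequence name is 3R, at any position. The heterochromatic scaffold 3RHet, which is listed as a sequence of its own, is not among them. The rule uses position alone, but the arm was set apart with earlier results of these data known, among them the density of its peaks beside the centromere.

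Atonal is a proneural transcription factor with a basic helix-loop-helix domain. It binds E-box motifs in DNA together with the ubiquitous partner Daughterless, and in the eye disc it selects the founding photoreceptor R8 at the morphogenetic furrow, the front of differentiation that sweeps across the disc. The long arms of fly chromosomes are gene-rich euchromatin that passes into repeat-rich heterochromatin towards the centromere. In reads mapped to such repeats, input chromatin is often raised as well as the precipitated sample.

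The list rests on 2 libraries of chromatin precipitated with anti-GFP antibodies and 2 libraries of input. Both came from third-instar (L3) larvae of the knock-in IMAGO line ato:GFP, untreated and kept at 25 degrees, in which Atonal carries green fluorescent protein; no group without the tag is among the samples. The protocol names 400 larvae and 800 eye discs, fixed and sonicated as a pool, with 10% of the volume taken as input. Whether libraries 1 and 2 were separate dissections is not stated in the labels. The list gives 1 set of values for the whole series, so no value below has an error between libraries, library depth is unknown, and the tissue label could not be checked against marker genes.

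Each peak has a fold, the authors' enrichment of ChIP over control, and a −log10 q, the significance the authors' peak caller gave it. Fold and p-value together imply a ChIP level and a control level under the formula of the peak caller MACS2, which adds 1 to each level before dividing and takes p from a Poisson distribution around the control level; that formula was met by 6065 of 6065 peaks. The control level is given as a multiple of the lowest level in the list, and is called low where it is under 1.5 times that lowest level. Coordinates are those of the deposited list, whose Het scaffold names belong to Release 5 of the genome assembly. Positions run from the centromere end of the 3R sequence, at its low coordinates. Tests of density treat peaks as units: they cover the counting of peaks, which are not independent where they are neighbours, and say nothing of the spread from library to library. The gene at each position and the sequence under it were not analysed here.

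Like those of the other large arms, the peaks of 3R were short and of low enrichment, with a few exceptions. They covered 78.7 kb, or 0.283% of the 27.79 Mb up to the last peak. The median fold was 1.94 on 3R, with quartiles of 1.75 and 2.16 and a range from 1.44 to 6.28, against a median of 1.87 on the other 4 large arms pooled (3L, 2L, 2R and X). The median width was 111 bp on 3R (quartiles 85 and 161 bp, shortest 69 bp, widest 1500 bp), against 118 bp on the other arms. Widths under 100 bp made up 43.3% of the 3R peaks and 37.0% of the peaks on the other arms. The median −log10 q was 3.01 on 3R and 3.36 on the other arms. The median control level was 1.28 times the lowest on 3R and 2.17 times on the other arms, and it was low at 303 of 513 peaks on 3R (59.1%) and at 838 of 2630 on the other arms (31.9%). The arm interiors leave out the 2 Mb next to each centromere. Low control was found there at 61.8% of the peaks on 3R and 48.2% on the other arms pooled. By single arm the interior share was 57.5% on 3L, 60.3% on 2L, 44.8% on 2R and 29.7% on X. These medians and shares are descriptions without a test.

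As a whole, 3R held fewer peaks per length than each of the other large arms. Its density was 18.5 peaks per Mb, against 28.9 per Mb on the other 4 arms pooled, a ratio of 0.639 (95% interval 0.580 to 0.702, two-sided exact binomial test, p = 2.01e-22). Taken one by one, the ratio of 3R was 0.580 to 3L, 0.617 to 2L, 0.620 to 2R and 0.773 to X, and the adjusted p over these 4 exact binomial tests was at most 3.51e-05. The difference from X was lost when peaks within 500 bp of one another were joined into 1 region (ratio 0.986, 0.851 to 1.14, exact binomial test, p = 0.853). Counting peaks with low control alone, the order turned: 3R had 10.9 such peaks per Mb, against 9.21 per Mb on the other arms (ratio 1.18, 1.03 to 1.35, exact binomial test, p = 0.0130). Among single arms it was past the threshold for X, with 5.62 per Mb (ratio of 3R to X 1.94, 1.57 to 2.41, exact binomial test, adjusted p = 4.21e-10). With low control, the ratio of 3R was 1.01 (0.856 to 1.199) to 3L, 1.03 (0.866 to 1.22) to 2L and 1.12 (0.939 to 1.35) to 2R, none past the threshold (exact binomial tests, adjusted p = 0.418 or more). Joining peaks within 5000 bp, a distance chosen after the data were seen, the ratio to the pooled arms was 1.00 (0.879 to 1.14, exact binomial test, p = 0.974). In such regions the ratio of 3R was 0.885 to 3L, 0.871 to 2L and 0.921 to 2R, none past the threshold (exact binomial tests, unadjusted p = 0.0989 to 0.345), and 1.62 to X (1.33 to 1.99, unadjusted p = 8.43e-07).

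In the interiors the density of 3R was not distinguishable from that of the other arms pooled. It was 17.7 peaks per Mb on 3R, from 456 peaks, against 17.1 per Mb on the other arms, from 1416 peaks (ratio 1.04, 0.930 to 1.15, exact binomial test, p = 0.514). The limit of 2 Mb mattered: leaving out 1 Mb beside each centromere gave 0.851 (0.767 to 0.943, exact binomial test, p = 0.00175). Leaving out 3 Mb gave 1.12 (0.998 to 1.24, exact binomial test, p = 0.0523). With 5 Mb left out it was 1.01 (0.893 to 1.13, exact binomial test, p = 0.904). The single interiors, at 2 Mb, ran from 15.6 per Mb on 3L to 19.1 per Mb on 2R. On 2R, 120 of the 364 interior peaks lay between 2 and 3 Mb, just past the limit. The composition differed. Low-control peaks were denser on 3R, at 10.9 per Mb against 8.23 per Mb on the other interiors (ratio 1.33, 1.15 to 1.53, exact binomial test, p = 8.12e-05). By single arm this ratio was 1.06 (0.888 to 1.28) to 2L, not past the threshold, against 1.22 to 3L, 1.28 to 2R and 2.19 to X (exact binomial tests, adjusted p = 0.0430, 0.0252 and 4.63e-12). Peaks with raised control were sparser than on the pooled arms, at 6.75 per Mb on 3R against 8.83 per Mb (ratio 0.764, 0.644 to 0.902, exact binomial test, p = 0.00118). The raised-control density of 3R was close to those of 3L (6.62 per Mb) and 2L (6.76 per Mb). The ratios were 1.02 (0.814 to 1.28) and 0.998 (0.795 to 1.25). It was lower than those of 2R (10.6 per Mb) and X (11.8 per Mb), with adjusted p = 3.43e-05 and 5.83e-08 in exact binomial tests. On 2R, 109 of the 201 raised-control interior peaks lay between 2 and 3 Mb, and no ratio without them was computed. The length at each control level is unknown, so these densities divide by the whole interior.

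**Figure D1:**
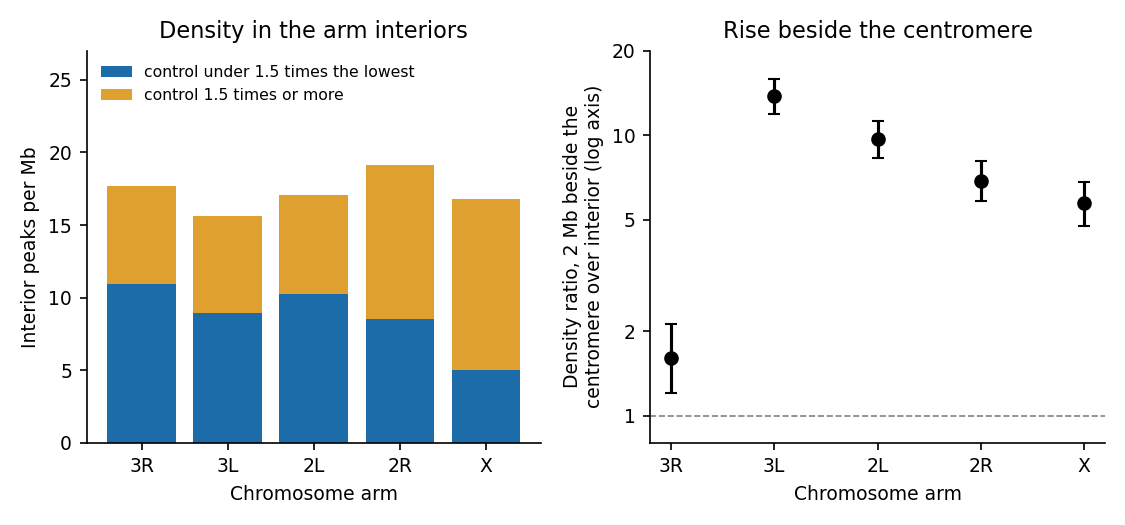
Left, interior peaks per Mb of length on 3R and the other 4 large arms, split by control level. Right, density in the 2 Mb beside the centromere over that of the interior on a log axis, with exact 95% intervals over peaks; 3R stands at 1.61 and the other arms between 5.71 and 13.8.

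Within the arm sequences as listed, the rise towards the centromere was weaker on 3R than on the other arms. The first 2 Mb held 57 peaks at 28.5 per Mb, against 17.7 per Mb in the interior, a ratio of 1.61 (1.20 to 2.13, exact binomial test, p = 0.00147). Its size depended on the stretch taken: the first 1 Mb alone gave 2.58 (1.85 to 3.502, exact binomial test, p = 6.93e-08). The other arms had 151.8 peaks per Mb in their 2 Mb beside the centromere. Each such stretch was taken from the centromere end of the arm sequence, and scaffolds listed apart, such as 3RHet, are not part of it. How much heterochromatin each arm sequence holds was not examined, so the stretches may differ in kind. The rise of 3R was 0.181 times that of the other arms pooled (0.134 to 0.242, two-sided exact conditional test, p = 1.93e-43). The density of 3R beside the centromere was known when the arm was set apart, so tests of this rise are not independent of that choice. The rise of 3R remained the weaker for low-control peaks (0.408 times, 0.241 to 0.663, exact conditional test, p = 9.99e-05). Against single arms, counting all peaks, it was 0.117 times that of 3L, 0.166 times that of 2L, 0.234 times that of 2R and 0.282 times that of X (exact conditional tests, adjusted p of 1.45e-15 or less). Of these, the difference from 2L was not past the threshold for low-control peaks (0.705 times, exact conditional test, p = 0.295), nor that from X after joining peaks within 5000 bp (0.599 times, exact conditional test, p = 0.117). With a stretch of 5 Mb the rise of 3R was closer to those of the other arms, at 0.390 times the pooled rise, 0.295 times that of 3L, 0.410 times that of 2L, 0.2997 times that of 2R and 0.714 times that of X (0.547 to 0.930, exact conditional test, unadjusted p = 0.0115). The 3RHet scaffold held 321 peaks per Mb, so that the first 1 Mb of 3R, at 45 per Mb, had 0.140 times its density (0.101 to 0.189, exact binomial test, p = 4.21e-67).

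Within the first 2 Mb, most peaks lay in the first 1250 kb, and about as many in a few short stretches as outside them. Steps of 250 kb from the start held 17, 6, 7, 15, 7, 1, 2 and 2 peaks. A group of 29 of the 57 peaks lay in 4 stretches of 5 or more peaks, each peak within 5000 bp of the next. The stretch from 34234 to 37141 held 5 peaks, that from 84532 to 91630 held 8, that from 871663 to 878614 held 9 and that from 1164289 to 1169120 held 7. In these stretches 2 of the 29 peaks had a low control level, against 19 of the 28 other peaks of the first 2 Mb. None of the 57 peaks reached 2.5-fold, against 63 of 1214 (5.19%) beside the centromeres of the other arms. The highest of the 57 was 2.45-fold, at 316998 to 317079. For low-control peaks alone, 21 in the first 2 Mb, the ratio of the first 2 Mb to the interior was 0.960 (0.585 to 1.496, exact binomial test, p = 1). Counting all peaks, the rise was no longer past the threshold when peaks within 1000 bp were joined (ratio 1.34, 0.915 to 1.89, exact binomial test, p = 0.108).

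Along the arm, the density of 3R was higher on the centromere side as a whole. In bands of 4 Mb from the centromere end there were 27.75, 24, 21.75, 15, 9.5, 18.5 and 12.4 peaks per Mb. The fall was not steady, as the band from 20 to 24 Mb lay above both of its neighbours. The fullest 1 Mb bin was the first, with 45 peaks, followed by the bins from 3 to 4 Mb and from 4 to 5 Mb with 36 each. The emptiest full bins, from 18 to 19 Mb and from 25 to 26 Mb, held 5 each. The median bin of 3R held 17 peaks, against 15 to 18 on the other arms, whereas the fullest bin of each other arm held 178 to 246.

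Divided at its middle, 3R carried 320 peaks on the centromere side, or 23.0 per Mb, against 193 on the telomere side, or 13.9 per Mb (ratio 1.66, 1.38 to 1.99, exact binomial test, p = 2.26e-08). Leaving out the first 2 Mb gave a ratio of 1.59 (1.32 to 1.93, exact binomial test, p = 9.31e-07), and for low-control peaks without them it was 1.33 (1.04 to 1.69, exact binomial test, p = 0.0197). Over whole arms the ratio was 3.70 on 3L, 3.53 on 2L, 3.79 on 2R and 1.56 on X. The 3R ratio was thus 0.448 times that of 3L, 0.470 times that of 2L and 0.438 times that of 2R (exact conditional tests, adjusted p of 7.55e-09 or less), and 1.06 times that of X (0.822 to 1.37, adjusted p = 0.657). The same ratio without the 2 Mb was 1.33 on 3L, 1.64 on 2L, 2.196 on 2R and 0.781 on X. On 2R, 120 of the 233 centromere-side peaks in that count lay between 2 and 3 Mb. Without the 2 Mb, the ratio of 3R was 2.04 times that of X (1.52 to 2.74, exact conditional test, adjusted p = 4.40e-06). It was not past the threshold against the autosomal arms, at 1.195 times that of 3L (0.894 to 1.597), 0.970 times that of 2L (0.726 to 1.296) and 0.725 times that of 2R (0.540 to 0.972, exact conditional test, adjusted p = 0.0524). Dividing the arm at its middle was chosen after the peaks had been seen.

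The bands differed more in peaks with raised control than in low-control peaks. In the 4 Mb bands, low-control peaks numbered 12.75, 10.75, 13.75, 12.75, 6, 12 and 8.19 per Mb. As counts per band in place of densities, low-control peaks numbered 51, 43, 55, 51, 24, 48 and 31. The counts of raised-control peaks in the same bands were 60, 53, 32, 9, 14, 26 and 16. The last band is cut short by the end of the arm. Bins of 1 Mb held 4 to 19 low-control peaks and 0 to 29 raised-control peaks. No raised-control peak lay in the bins from 7 to 8 Mb, from 18 to 19 Mb or from 25 to 26 Mb.

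**Figure D2:**
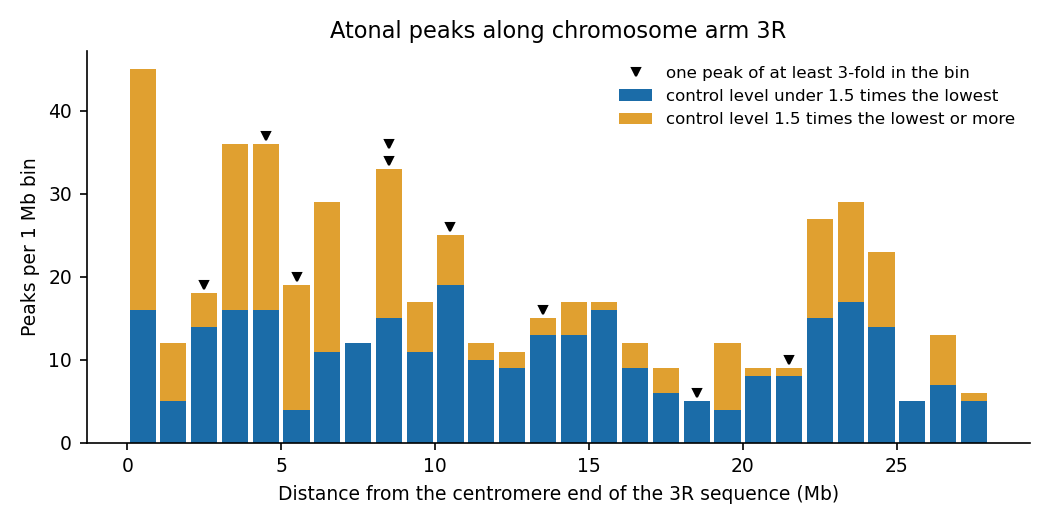
Peaks per 1 Mb bin along 3R, from the centromere end on the left, split by control level; triangles mark peaks of at least 3-fold. The first bin is the fullest with 45 peaks, of which 16 have a low control level.

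By the median, gaps between peaks were longest on 3R among the 5 large arms, a comparison made without a test. The median gap between neighbours was 13.0 kb on 3R, against 2.17 kb on 3L, 2.09 kb on 2L, 1.75 kb on 2R and 0.941 kb on X. Another peak lay within 1000 bp of 38.2% of the peaks on 3R, against 51.4% on 3L, 54.1% on 2L, 58.4% on 2R and 68.4% on X. In the interiors these shares were 35.7% on 3R, against 33.9% on 3L, 31.0% on 2L, 50.5% on 2R and 60.9% on X, so that without the centromere side 3R was close to 3L and 2L. The median distance of interior peaks to the nearest other peak was 3.75 kb on 3R and 4.74 kb on 3L. It was 6.01 kb on 2L, 0.921 kb on 2R and 0.465 kb on X. Peaks more than 50 kb from any other numbered 71 of 513 on 3R (13.8%). The same count was 53 of 780 on 3L (6.79%), 68 of 688 on 2L (9.88%), 69 of 627 on 2R (11.0%) and 44 of 535 on X (8.22%). These shares divide by all peaks of an arm, those on the centromere side included. No share for the interiors was computed. The 3 longest stretches without a peak ran from 6083335 to 6629999 (547 kb), from 18632812 to 19072107 (439 kb) and from 11705583 to 12141097 (436 kb). The longest single gap was larger on X (1263 kb), 2R (808 kb) and 3L (673 kb), and smaller on 2L (517 kb). Gaps over 200 kb numbered 40 on 3R (1.44 per Mb), against 25 on 3L (1.02 per Mb), 27 on 2L (1.17 per Mb), 20 on 2R (0.9503 per Mb) and 38 on X (1.696 per Mb).

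Close spacing went with raised control, whose part in the spacing was not tested. Another peak lay within 1000 bp of 155 of the 210 raised-control peaks on 3R (73.8%) and of 41 of the 303 low-control peaks (13.5%). Joining peaks within 5000 bp left 304 regions, of which 231 were single peaks, and 213 of these had low control. At the other end, 18 stretches of 5 or more peaks held 149 peaks, or 29.0% of the arm. Their median control level was 2.69 times the lowest and 12 of the 149 had low control, against 1.18 times and 291 of 364 outside them. Their median fold was 1.76 and their median width 140 bp, against 2.00-fold and 102 bp outside. By position, 13 of the 18 lay in the first 10 Mb, 4 of them in the first 2 Mb, and 3 lay between 22 and 25 Mb.

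**Figure D3:**
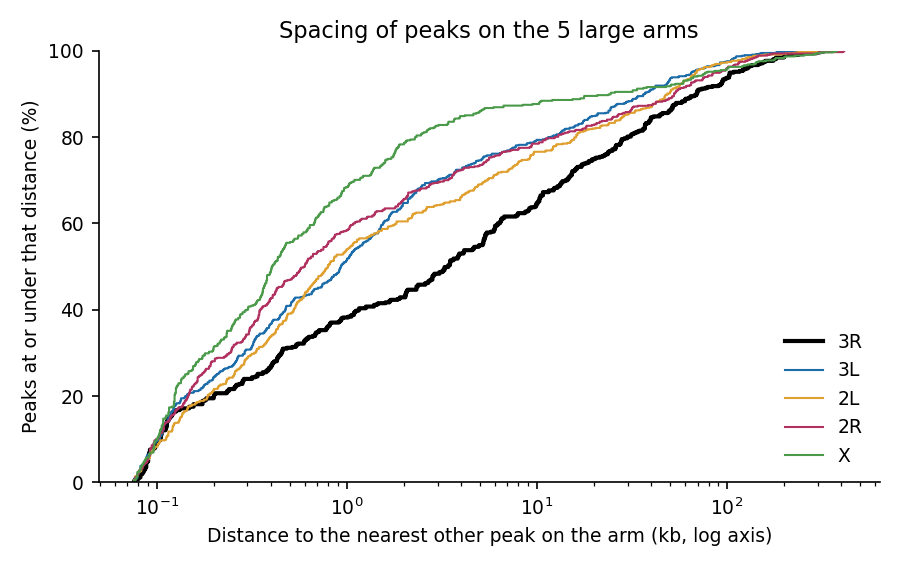
Cumulative share of peaks by the distance to the nearest other peak of the same arm, on a log axis, for 3R (thick line) and the other 4 large arms. At 1 kb the 3R curve has reached 38.2% and the others 51.4% to 68.4%.

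After joining peaks within 500 bp, the region with the most peaks ran from 6785832 to 6788919 and held 9. Their folds were 1.51 to 1.98 and their control levels 3.43 to 3.94 times the lowest. Regions with 8 peaks each ran from 5134314 to 5136479 and from 22386100 to 22389491, again with low control at none of them. Among the 10 regions of 4 or more peaks, the one exception was 4102338 to 4103781. Its 4 peaks all had low control, at 1.05 to 1.31 times the lowest, with folds of 1.96 to 2.42 and widths of 70 to 460 bp.

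Enrichment of at least 3-fold was reached by 9 of the 513 peaks of 3R (1.75%), against 1.43% of the whole list (87 of 6065 peaks), so the share of 3R lay near that of all peaks. In the interiors, such peaks numbered 0.349 per Mb on 3R and 0.506 per Mb on the other arms (ratio 0.689, 0.295 to 1.44, exact binomial test, p = 0.410). With 9 peaks the interval spans values from far below to above that of the other arms. All 9 lay between 2.73 and 21.9 Mb, outside the first 2 Mb. All 9 had low control levels, from 1.00 to 1.41 times the lowest, and ChIP levels of 61 to 124, with a median of 76. No ChIP level in the list was above 138, so a control level of 3 times the lowest or more could not give 3-fold.

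The strongest peak of 3R was also the strongest of the list, both by fold and by −log10 q. It lay at 18309449 to 18309584, was 136 bp wide and was enriched 6.28-fold, with a −log10 q of 49.8. Its ChIP level was 124 over a control level of 18.9, or 1.08 times the lowest. The nearest other peak was 129 kb away, and its 1 Mb bin held 5 peaks in all, the fewest of any full bin of the arm.

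The second by fold, 10591232 to 10591558, was 327 bp wide with 4.02-fold enrichment and a −log10 q of 18.6. Another peak lay 174 bp away. The third, 5712244 to 5712428, had a fold of 3.94 over 185 bp, with a control level at the lowest value of the list and no other peak within 36.8 kb. Both ranked among the 10 strongest folds of the whole list, as 5th and 8th.

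A further 4 strong peaks were wide and had low control. The peak at 2734998 to 2735390 was 393 bp wide with 3.40-fold enrichment. The peak at 4850636 to 4850930 was 295 bp wide with 3.30-fold enrichment. The peak at 13783086 to 13783386 was 301 bp wide with 3.21-fold enrichment, and that at 21865516 to 21865961, 446 bp wide, had 3.11-fold enrichment and was 125 kb from any other peak. These 4 were spread over the arm, and their −log10 q ran from 11.4 to 13.7.

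The remaining 2 peaks of at least 3-fold stood at the ends of 1 locus. The peak at 8334766 to 8334888, 123 bp wide, was enriched 3.77-fold, and its −log10 q of 22.4 was the second highest on 3R. The peak at 8293393 to 8293464, 72 bp wide, was enriched 3.39-fold with a −log10 q of 16.0. With both included, 16 peaks lay in 41.5 kb, which is 48.5% of the 33 peaks in that 1 Mb bin; 18.8 kb of the locus was a single gap. Other stretches of 3R were more closely packed, such as 5130422 to 5137464 with 13 peaks in 7.04 kb, none above 2.55-fold. Another of the 10 strongest peaks by −log10 q, 8328220 to 8328313, lay there too, with 2.91-fold enrichment and a control level 1.81 times the lowest. The 16 peaks had a median fold of 2.10 and a median control level of 2.43 times the lowest, and the 2 at the ends were the ones with low control. The lowest fold, 1.47, and the highest control level, 3.94 times the lowest, were those of 1 peak in a group of 7 from 8318904 to 8321449. The limits of the locus were set after its peaks were seen.

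**Figure D4:**
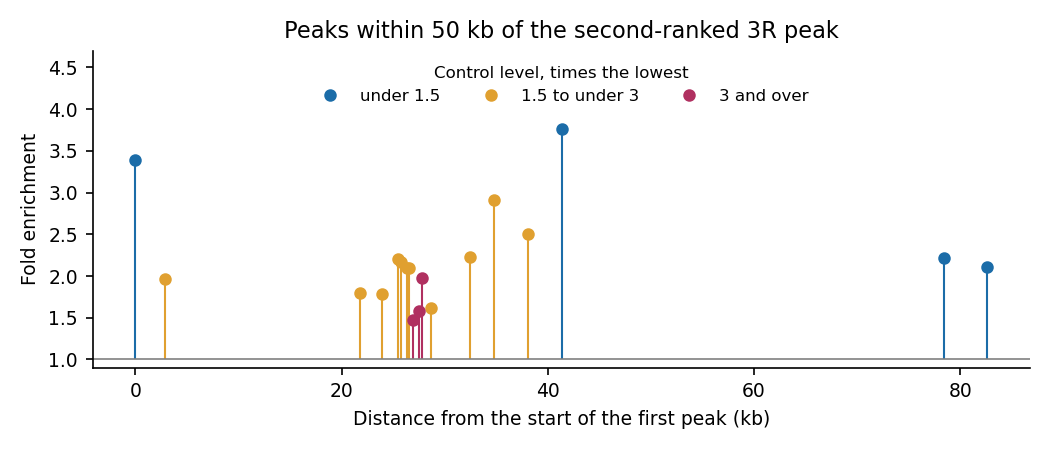
Fold enrichment of each peak within 50 kb of the peak ranked second by −log10 q on 3R, by distance from the start of the first peak shown and coloured by control level. The strong peaks stand at both ends of a 41.5 kb locus of 16 peaks, at 3.39-fold and 3.77-fold.

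The peak ranked 10 by −log10 q on 3R was of another kind. It lay at 19385795 to 19385868, was 74 bp wide and was enriched 2.48-fold over a control level of 2.497 times the lowest. It was 88 bp from the widest peak of the arm, 19384207 to 19385706, which was 1500 bp wide and enriched 1.78-fold over a control level of 4.20 times the lowest.

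The 5 widest peaks of 3R all had high control and low fold. After the 1500 bp peak came 3179534 to 3180457 (924 bp), 14962880 to 14963795 (916 bp), 5132291 to 5133196 (906 bp) and 3177996 to 3178819 (824 bp). Their folds were 1.61 to 1.79 and their control levels 3.74 to 4.27 times the lowest. On 3R as a whole, the share of peaks of at least 200 bp was 5% at the lowest control level, 9.42% from there to under 1.5 times, 18.5% from 1.5 to under 3 times and 46.3% at 3 times or more. The median fold in the same 4 classes was 2.16, 2.02, 1.79 and 1.65. On the other arms the wide share in these classes was 5.34%, 9.97%, 13.0% and 42.5%, and the median fold 2.16, 2.06, 1.84 and 1.66. Fold is computed from the control level, and Spearman's rho between them over the 513 peaks was −0.67 (Pearson's r −0.48), given as a description. No ChIP level in the list was above 138, which limits the fold that a peak with high control can reach. At the lowest control level no 3R peak was under 1.84-fold. How far these limits set the fall of fold with control level was not tested.

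The fold of wide peaks on 3R also went with control level, from which fold is computed. With raised control there were 61, with a median fold of 1.77; of these 4 reached 2.5-fold and none reached 3-fold. With low control there were 25, with medians of 272 bp in width and 2.54 in fold; of these 13 reached 2.5-fold and 5 reached 3-fold. Examples below 3-fold, chosen after their values were seen, were 4712762 to 4713039 (2.86-fold, 278 bp), 13651327 to 13651584 (2.80-fold, 258 bp), 21454629 to 21454924 (2.79-fold, 296 bp) and 24589740 to 24589969 (2.77-fold, 230 bp). Within the interiors, wide peaks numbered 2.83 per Mb on 3R and 3.21 per Mb on the other arms (ratio 0.883, 0.672 to 1.15, exact binomial test, p = 0.372). Leaving out 1 Mb in place of 2 Mb beside each centromere gave 0.696 (0.538 to 0.891, exact binomial test, p = 0.00294). With 3 Mb left out it was 0.980 (0.736 to 1.29, exact binomial test, p = 0.945). With 5 Mb left out it was 0.760 (0.548 to 1.04, exact binomial test, p = 0.0826). At 2 Mb, the ratio was 0.658 to 2R and 0.672 to X (exact binomial tests, adjusted p = 0.0263 each). It was 1.42 (0.964 to 2.10) to 3L and 1.12 (0.777 to 1.63) to 2L, neither past the threshold. The 2R interior includes 120 peaks between 2 and 3 Mb, 109 of them with raised control. No ratio of wide peaks without them was computed.

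**Figure D5:**
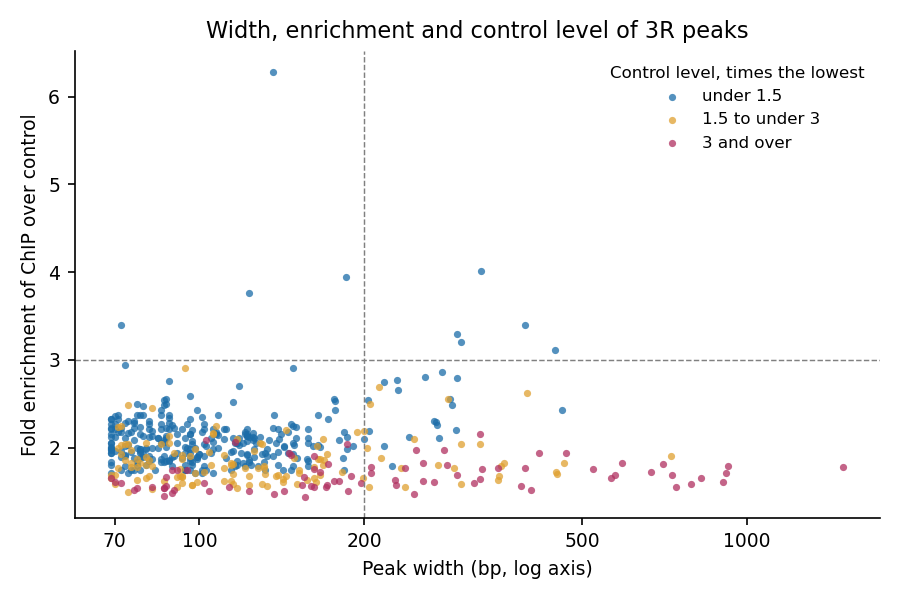
Fold enrichment against width on a log axis for the 513 peaks of 3R, coloured by control level, with lines at 3-fold and 200 bp. The 9 peaks above 3-fold all have low control, and the widest peaks, up to 1500 bp, have control levels of 3 times the lowest or more and folds under 2.

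The summit is the single position within each peak that the list gives as an offset from the peak's start. On 3R it lay at a median of 47.6% of the peak's width from the low-coordinate edge (quartiles 28.1% and 69.6%). The medians on the other arms were 46.6% to 50%. The median distance of the summit from the centre of the peak was 23 bp on 3R and 22 to 29.5 bp on the other arms. In the 9 peaks of at least 3-fold the quartiles were 41.8% and 53.5%, with a median distance of 8 bp from the centre. In the 86 peaks of at least 200 bp the median distance was 64.5 bp.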

How the data were processed

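The members and the lists were chosen with earlier results of these data known. The read aligner Bowtie2 2.2.1 appears in the submitters' processing notes; neither the labels nor the list name the peak caller, the build or any pooling of libraries. The deposited list has 10 columns and no header, read as the narrowPeak layout from its values. In 100% of peaks the deposited score is 10 times the −log10 q-value, rounded down. The fold deposited by the authors is the ratio of ChIP to control at the peak. Each peak also has a deposited −log10 q-value and, from the same caller, a −log10 p-value; no q-value is above 0.0499. The summit is a deposited offset from the peak's start.

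Starts were moved to count from 1. The ChIP level was the whole number, and the control level the value, for which fold is (ChIP + 1)/(control + 1) and p is the upper Poisson tail, the formula of MACS2; both were met within 1e-04 for 6065 of 6065 peaks, and 320 peaks share the lowest control level. The end of the last peak stood in for each arm's length. Peaks were placed by their midpoint. For densities, the exact binomial test was used (two-sided, 95% intervals by Clopper-Pearson), and for ratios of ratios the exact conditional test (Fisher's noncentral hypergeometric distribution), adjusted by Benjamini-Hochberg over 4 arms. Peaks named are the 10 with the highest −log10 q, those of at least 3-fold, the 5 widest, the region with the most peaks, the 3 longest gaps, and the fullest and emptiest bins; others are marked as chosen after their values were seen, or belong to a described stretch. Python 3.11.15, numpy 2.4.6 and scipy 1.17.1 were used, and each test was tested on simulated data. The simulated counts were independent, unlike neighbouring peaks of the list, so that check does not cover clustered peaks. Intervals cover the counting of peaks alone. Merging, score, control, length and limit settings were varied. Gene names and sequences were not used here.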

Additional observations from a re-analysis of the deposited data

How the results depend on the processing

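Of 54 alternatives for the 7 main ratios, 43 kept the direction and the side of the 0.05 threshold, as did 44 of 56 for ratios to single arms. The rise of 3R beside the centromere was below that of the pooled arms in all 8 alternatives run (0.143 to 0.408 times). With low-control peaks alone, the density ratio of 3R to the pooled arms turned to 1.18, those to 3L, 2L, 2R and X to 1.01, 1.03, 1.12 and 1.94, the rise on 3R to 0.960 and the ratio of wide interior peaks to 1.10, while the interior density ratio came past the threshold at 1.33. Joining peaks within 5000 bp gave 1.00 for the pooled arms, 0.885, 0.871 and 0.921 (no longer past the threshold) for 3L, 2L and 2R, 1.62 for X, 1.16 (now past the threshold) for the interiors and 1.16 (no longer past it) for the rise on 3R. Joining within 500 bp gave 0.986 for X, no longer past the threshold. Joining within 1000 bp gave 1.16 for X and 1.34, no longer past the threshold, for the rise. The interior ratio turned to 0.852 at or above the median score and to 0.851 with a stretch of 1 Mb, which also brought the ratio of wide peaks past the threshold at 0.696. At or above the median score the rise on 3R was 1.66, with an interval that reached below 1 (0.969 to 2.68, exact binomial test, p = 0.0493). The cause was not tested, except that low-control counts remove peaks but no length and joining lowers the number counted where peaks are close. The settings at 5000 bp, and all those for the arm divided at its middle, were chosen after seeing the data. No paired analysis was possible because values for single libraries are not part of the list, and leaving out a replicate was not run for the same reason. Library depth is unknown, so what it limits cannot be stated.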

Other observations

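The peaks of 3R at the lowest control level, which have no control level above the common floor, numbered 80 of 513 (15.6%). On the other 4 large arms the share was 7.83%. The whole list, of which 3R made up 8.46%, held 320. In the interiors the share was 16.7% on 3R, 17.4% on 3L, 18.4% on 2L, 9.07% on 2R and 10.2% on X. The density of peaks at the lowest control level was 2.88 per Mb on 3R, against 2.26 per Mb on the other 4 large arms. The 3R ones had medians of 99 bp in width and 2.16 in fold, with folds from 1.84 to 3.94. On 3R, 33 of 513 peaks (6.43%) reached 2.5-fold, against 206 of 2630 (7.83%) on the other arms. In the 2 Mb beside the centromere none of 57 did on 3R, against 63 of 1214 (5.19%) on the other arms. These shares were compared without a test.

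The implied control levels moved in steps. Above the floor, 381 of 433 control levels on 3R (88.0%) lay within 0.03 steps of a whole multiple of 0.576, a step found by scanning values from 0.3 to 1.3 over the whole list, where 5208 of 5745 did. The highest ChIP level in the list was 138, shared by 93 peaks, and the highest control level was 138 such steps; the lowest width was 69 bp. No 3R peak stood at that highest ChIP level: the highest on 3R was 133, reached by the 924 bp peak at 3179534 to 3180457 and the 147 bp peak at 4728123 to 4728269.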
